A study of Homo sapiens with 6 samples.

Results

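The expression of 10 genes of the YAP and serum response factor (SRF) programmes was followed in RD18 rhabdomyosarcoma cells with and without induced miR-22. These were CCN1, CCN2, ANKRD1 and AMOTL2, known as targets of YAP, and the cytoskeletal genes CNN1, CNN2, CNN3, TAGLN, ACTA2 and CALD1. They were chosen by name, with earlier results of these data known. Each was read from the array row that carried its symbol alone. All 10 of 10 were measured, among 18417 genes with a row of their own. None of the 10 had more than 1 such row.

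RD18 is an established line of embryonal rhabdomyosarcoma, a tumour with features of immature skeletal muscle. The derivative NpBI-22 (miR-22 cells) was profiled as 2 biological replicates treated with doxycycline at 1 µg/ml for 6 days (induced) and as 2 untreated replicates (non-induced), 1 array per culture. The derivative NpBI-206AS gave 1 array with the same doxycycline treatment and 1 without, as further controls. What its construct makes once induced is not given in the labels, so its response holds doxycycline and any product together, and no group shows doxycycline on cells without a construct. Whether a derivative is 1 clone is not given either.

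YAP and its paralogue TAZ (gene WWTR1) are coactivators that bind DNA through TEAD factors. The LATS kinases of the Hippo pathway keep them in the cytoplasm, and spread, tense or sparse cells let them enter the nucleus. SRF binds a DNA element called the CArG box. Its cofactors of the myocardin family, MRTFA and MRTFB, are released when actin polymerises, and many genes of the contractile cytoskeleton are read out this way, in smooth muscle chiefly with myocardin (MYOCD) itself. CCN1, CCN2 and ANKRD1 respond to both systems.

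The sequence of the induced microRNA and the promoter stretches of 3 of the genes are shown for orientation, the promoters because CCN2 and CNN1 rose below while ANKRD1, another YAP target, did not. All are RefSeq sequences of build GRCh38.p14, read 5′ to 3′ on the gene's strand. In miR-22-3p (chr17:1713914-1713935, minus strand) capitals mark the seed, bases 2 to 8. In the promoters capitals mark the core of the TEAD motif, GGAATG or its complement CATTCC. Each promoter holds the 250 bases before the gene's start: CCN2 at chr6:131951373-131951622 on the minus strand, ANKRD1 at chr10:90921088-90921337 on the minus strand and CNN1 at chr19:11538601-11538850 on the plus strand.
hsa-miR-22-3p: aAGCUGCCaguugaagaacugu
CCN2: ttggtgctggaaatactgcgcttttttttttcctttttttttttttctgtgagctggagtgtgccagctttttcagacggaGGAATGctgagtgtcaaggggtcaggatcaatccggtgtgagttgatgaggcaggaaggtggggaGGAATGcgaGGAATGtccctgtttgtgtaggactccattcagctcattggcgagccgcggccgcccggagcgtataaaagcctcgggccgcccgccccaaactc
ANKRD1: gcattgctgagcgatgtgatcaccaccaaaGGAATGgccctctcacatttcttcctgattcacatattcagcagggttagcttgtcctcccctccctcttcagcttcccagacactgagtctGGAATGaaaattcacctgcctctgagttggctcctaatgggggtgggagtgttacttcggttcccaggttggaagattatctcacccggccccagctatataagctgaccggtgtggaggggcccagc
CNN1: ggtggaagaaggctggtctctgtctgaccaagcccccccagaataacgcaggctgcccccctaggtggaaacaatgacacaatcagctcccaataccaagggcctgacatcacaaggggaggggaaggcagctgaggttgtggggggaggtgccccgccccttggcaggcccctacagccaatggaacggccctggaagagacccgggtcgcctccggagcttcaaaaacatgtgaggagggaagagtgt

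The CCN2 stretch held 3 matches to the TEAD core, which began 169, 104 and 95 bases before the start and did not overlap, and the ANKRD1 stretch held 2, at 220 and 128 bases. The CNN1 stretch held none. Of 35116 RefSeq promoter stretches of this length, 11.9% held at least 1 match, 0.94% at least 2 and 0.0826% at least 3. Promoters were matched for 8 of the 10 genes (not CCN1 or TAGLN), and 6 of these 8 had a match in at least 1 of their promoters, against 14.3% of 27305 genes. The 8 genes had 14 promoters and the 27305 genes 35116, so the 8 had more promoters per gene in which to find a match. AMOTL2, CNN3 and ACTA2 each had it in 1 of 2 promoters and CALD1 in 2 of 4. The full CArG box, counted only as CC, then 6 bases of A or T, then GG, was found in the CNN2 promoter only. It was found in 1.16% of all stretches. Stretches 1 base off this pattern, such as ccctatatgg in an ACTA2 promoter, were not counted, so a gene without a match may still hold a near match. These matches describe letters, not bound sites, and genes known as YAP targets were picked for the set.

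Values are log2 expression after robust multi-array averaging (RMA), so a difference of 1 is a 2-fold difference. Array medians lay between 5.66 and 5.75 and lower quartiles between 3.92 and 4.01. The table holds no detection calls, so a row is described only by its place among all rows. Array codes in the labels began with R715 for the 2 induced miR-22 cultures and no others, with R509 for the first non-induced culture, and with R587 for the second and for both NpBI-206AS cultures. Their meaning is not stated; if these letters mark a batch, batch and induction of miR-22 cannot be told apart. The number of arrays limits the precision of every value. The host gene of miR-22, MIR22HG, read 10.02 on the first and 10.01 on the second induced array and between 6.27 and 6.72 on the other 4, which is the labelled order, although the labels do not say whether a transcript of the construct reaches the same probes. Of 7 skeletal muscle markers 6 lay above the array median on all 6 arrays, including MYOD1 and MYOG. So did 4 of 8 fibroblast and 2 of 4 epithelial markers. By contrast MYOCD lay under the lower quartile on every array and MYH11, the smooth muscle myosin, read 4.51 to 4.94, under every array's median. Of 14 markers of the smooth muscle contractile apparatus, 5 (DES, SYNM, MYL9, TPM2 and CSRP1) lay above the median on all 6 arrays. So did 8 of the 10 genes (not CNN1 or ACTA2). The share of all genes above the median was not counted, so these counts describe level and not cell identity.

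The first comparison set induced against non-induced miR-22 cells, the contrast for which the study was built. CCN2 and CNN1 rose, 2.68-fold and 2.19-fold. CCN1, AMOTL2 and CNN3 lay 1.52-fold to 1.74-fold higher and CNN2 1.30-fold higher without passing, and the differences of ANKRD1, TAGLN, ACTA2 and CALD1 were under 2 standard errors. Thus 2 of 10 genes were higher at an adjusted p under 0.05 and 0 were lower, against 1.73% and 1.53% of all genes. At an unadjusted p under 0.05 there were 5 higher and 0 lower, against 12.1% and 9.12%. Both induced arrays lay above both non-induced arrays in 8 of the 10, against 27.9% of all genes. Their difference was above 0 in 9 of 10, against 51.1% of all genes. The median difference of the 10 was 0.50, beside 0.0072 for all genes. Because the 10 were chosen with earlier results of these data known, these shares describe the set and do not test it. Leaving out any single miR-22 array ended every call: 0 of the 10 and 0 rows of the whole table then passed in limma, with 4 to 6 of the 10 and 3526 to 8113 rows at an unadjusted p under 0.05. The labels call the replicates biological without describing how the cultures were separated. The p-values rest on the spread within groups, which limma draws partly from the other rows. That spread does not cover a difference between the prefix R715 and the others.

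**Figure D1:**
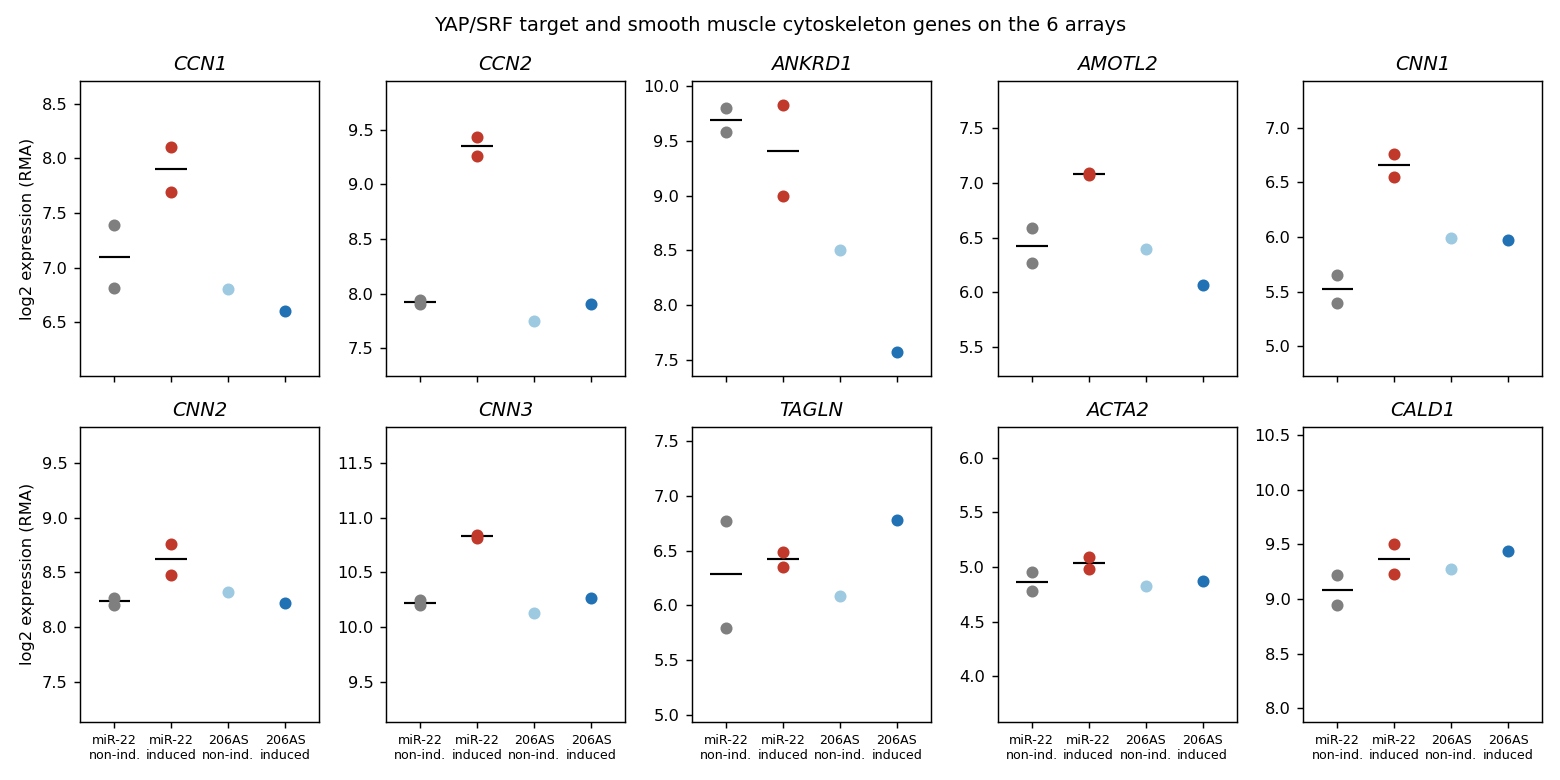
Log2 expression (RMA) of the 10 genes on each of the 6 arrays, 1 point per array, grouped by line and treatment; horizontal bars are means of 2 arrays, and every panel spans the same number of log2 units at its own level. The 2 induced miR-22 arrays of CCN2 (9.26 and 9.44) and CNN1 (6.76 and 6.55) lie above all other arrays, while ANKRD1 is low in both NpBI-206AS arrays (8.50 and 7.57).

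Among the YAP targets, CCN2 encodes a secreted matricellular protein long used as a readout of YAP and of TGF-beta. It read 9.26 and 9.44 on the induced and 7.95 and 7.91 on the non-induced arrays, with 7.75 in NpBI-206AS cells without and 7.90 with doxycycline. All 4 arrays without induced miR-22 thus lay close together and below both induced arrays. The log2 difference was 1.42 (SE 0.154, adjusted p = 0.0217). Left-out arrays moved it only between 1.33 and 1.51, although no row passed then.

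CCN1, its close relative and a ligand of integrins, read 7.69 and 8.10 on the induced arrays. The non-induced arrays read 7.39 and 6.81, and NpBI-206AS cells 6.81 without and 6.61 with doxycycline. Both induced arrays were the highest of the 6, but non-induced replicate 1 lay closer to the lower of them than to non-induced replicate 2. The difference of 0.80 (SE 0.256) did not pass (adjusted p = 0.15). It was 1.09 without non-induced replicate 1 and 0.51 without non-induced replicate 2.

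AMOTL2 encodes a motin, a scaffold of junctions and actin that is induced by YAP and in turn holds YAP back. Its induced arrays read 7.09 and 7.08 and its non-induced arrays 6.58 and 6.27, with 6.39 in untreated and 6.07 in treated NpBI-206AS cells. The groups did not overlap, and the spread lay mostly in the controls. The difference of 0.66 (SE 0.172) had an adjusted p of 0.1, and passed narrowly where fewer rows were adjusted for: 0.0479 with the rows of a gene averaged (18417 genes), and 0.05 after rounding without the dimmest 50 percent of rows.

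ANKRD1, an ankyrin repeat protein of striated muscle that sits on titin and enters the nucleus, was the member that varied most. Its induced arrays read 8.99 and 9.83 and its non-induced arrays 9.80 and 9.58, so these groups overlapped. In NpBI-206AS cells it read 8.50 without and 7.57 with doxycycline, below all 4 miR-22 arrays. The difference in miR-22 cells was -0.28 (SE 0.296, adjusted p = 0.664) and turned to 0.14 without induced replicate 1.

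Of the calponins, actin-binding proteins that restrain contraction or steady the cytoskeleton, CNN1 is the form of differentiated smooth muscle. It read 6.76 and 6.55 on the induced and 5.65 and 5.40 on the non-induced arrays, and 5.99 in untreated and 5.98 in treated NpBI-206AS cells. The NpBI-206AS level stood above that of non-induced miR-22 cells and below that of induced ones. The difference of 1.13 (SE 0.175) passed (adjusted p = 0.0361) and lay between 1.00 and 1.26 with single arrays left out. It starts from a dim level, since both non-induced values lay under the medians of their arrays (5.75 and 5.74). Against treated NpBI-206AS cells the induced mean stood 0.68 higher.

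CNN3, the acidic calponin found in many cell types, read 10.84 and 10.82 on the induced arrays against 10.20 and 10.24 on the non-induced ones, with 10.12 and 10.27 in NpBI-206AS cells. The 2 groups were tight and apart, by 0.61 (SE 0.145, adjusted p = 0.0849). It passed without the dimmest 50 percent of rows (adjusted p = 0.0461) and with averaged rows (0.043), where fewer rows were adjusted for. CNN2, the form of many non-muscle cells, read 8.76 and 8.48 against 8.27 and 8.21, with 8.32 and 8.22 in NpBI-206AS cells. Its induced arrays were the highest, but the difference of 0.38 (SE 0.169) did not pass (adjusted p = 0.268).

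TAGLN (SM22), a small calponin-like protein and a standard SRF target, read 6.49 and 6.35 on the induced arrays, inside the range of the non-induced arrays at 6.77 and 5.79. NpBI-206AS cells read 6.08 without and 6.78 with doxycycline. Its difference was 0.14 (SE 0.328, adjusted p = 0.865), and -0.35 without non-induced replicate 2. ACTA2, smooth muscle alpha-actin, lay under every array's median: 4.98 and 5.09 on the induced arrays, 4.78 and 4.95 on the non-induced ones, and 4.83 and 4.87 in NpBI-206AS cells. At 0.17 (SE 0.156, adjusted p = 0.612) its difference was little more than its error. CALD1, caldesmon, which binds actin and myosin, read 9.23 and 9.50 against 8.95 and 9.22, with 9.27 and 9.44 in NpBI-206AS cells. Its induced arrays overlapped those of NpBI-206AS, and the difference of 0.28 (SE 0.184) did not pass (adjusted p = 0.454).

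The second comparison took the 4 control arrays together as the reference for the 2 induced miR-22 arrays, which gives more arrays but counts differences between lines and treatments as spread. It shares the induced and the non-induced miR-22 arrays with the first. CCN2, CNN3, AMOTL2, CNN1 and CCN1 were higher: 5 of 10 genes against 7.78% of all genes, and 0 were lower, against 6.31%. CCN2 stood 1.47 above (SE 0.118, adjusted p = 0.000836), CNN3 0.62 (SE 0.106, adjusted p = 0.00998) and AMOTL2 0.76 (SE 0.155, adjusted p = 0.0189). CNN1 stood 0.90 above (SE 0.19, adjusted p = 0.021) and CCN1 1.00 (SE 0.228, adjusted p = 0.0281). Both induced arrays lay above all 4 controls in these 5 and in CNN2 and ACTA2, 7 of 10 against 22.1% of all genes. CNN2 missed the threshold (0.37, adjusted p = 0.0926), as did ACTA2 (0.18, adjusted p = 0.354), CALD1 (0.15, adjusted p = 0.623), TAGLN (0.07, adjusted p = 0.917) and ANKRD1 (0.55, adjusted p = 0.622). With only 1 induced array, which is then assumed to vary like the controls, CCN2 alone passed: its adjusted p was 0.0165 when induced replicate 1 was dropped and 0.0143 for replicate 2. Leaving out non-induced replicate 2 kept CCN2, CNN1 and CNN3, leaving out either NpBI-206AS array lost CCN1, and leaving out non-induced replicate 1 kept all 5.

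**Figure D2:**
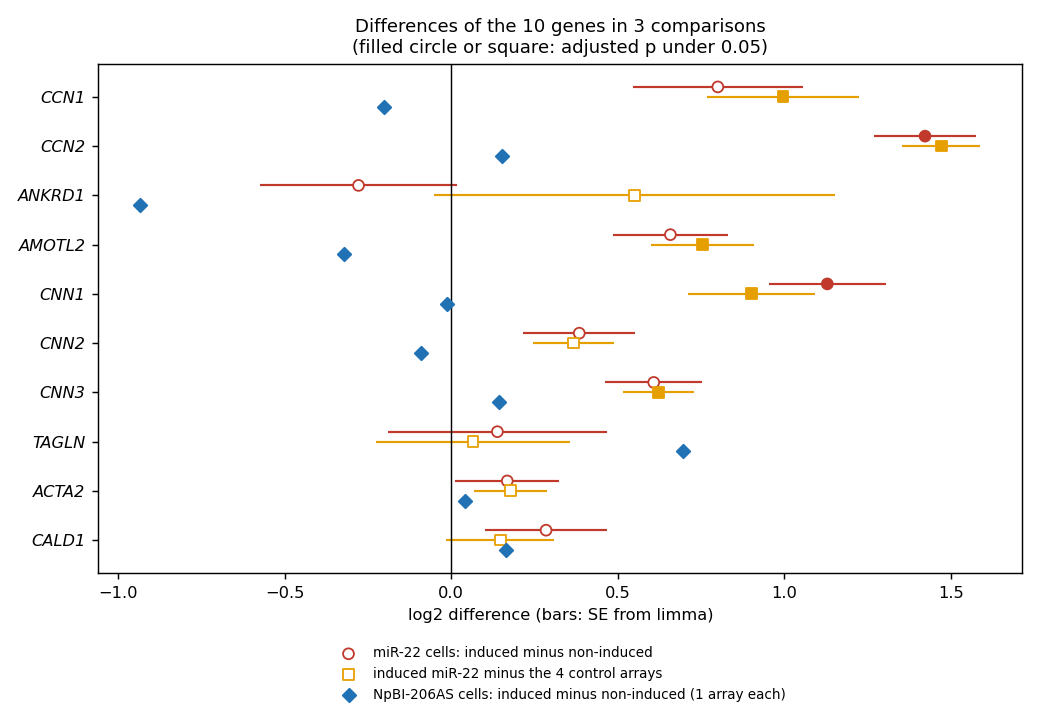
Log2 differences of the 10 genes on the x axis: miR-22 cells with minus without induction (circles), induced miR-22 cells minus the 4 control arrays (squares) and NpBI-206AS cells with minus without doxycycline (diamonds, 1 array each); bars are standard errors from limma and filled circles or squares passed an adjusted p of 0.05. CCN2 and CNN1 are filled in both fits, and the NpBI-206AS differences run from -0.93 for ANKRD1 to 0.69 for TAGLN.

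The next question was whether the response to doxycycline differed between the lines. In NpBI-206AS cells, with 1 array a side and no replicate check, 0 of the 10 genes were 2-fold apart, against 0.0434% of genes at least 2-fold higher and 0.0652% at least 2-fold lower. Their induced minus non-induced differences were 0.15 for CCN2, -0.01 for CNN1, -0.20 for CCN1, -0.32 for AMOTL2, 0.14 for CNN3, -0.09 for CNN2, 0.04 for ACTA2 and 0.16 for CALD1. TAGLN was 0.69 higher and ANKRD1 0.93 lower on the treated array. The median of the 10 was 0.01 there, beside 0.0035 for all genes.

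Tested as a difference between responses, with each NpBI-206AS array assumed to vary like the miR-22 arrays, 0 of the 10 genes and 0 of 33297 rows passed in limma. At an unadjusted p under 0.05 there were 3 of the 10, all with the larger response in miR-22 cells, against 4.76% of all genes; 0 of the 10 had the smaller, against 3.26%. Among all rows 2957 did so. CCN2 responded more in miR-22 cells by 1.27 (SE 0.267, adjusted p = 0.332), CNN1 by 1.14 (SE 0.303, adjusted p = 0.41) and AMOTL2 by 0.98 (SE 0.298, adjusted p = 0.464). CCN1 followed with 1.00 (SE 0.443, adjusted p = 0.594). For TAGLN the sign was opposite, -0.56 (SE 0.568, adjusted p = 0.837). The lowest adjusted p of any row was 0.184, that of MIR22HG, whose response differed by 3.62 (SE 0.342). Since even a difference of this size did not pass, this design is too small for the count of 0 to say that the responses were alike.

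The untreated lines were compared by values only, with 1 NpBI-206AS array and no test. ANKRD1 was 1.19 lower in NpBI-206AS than in the mean of the 2 non-induced miR-22 arrays, and 1.08 lower than the replicate with the same code prefix. It was the only 1 of the 10 at least 2-fold apart, against 0.185% of genes at least 2-fold lower and 0.217% at least 2-fold higher. CNN1 was 0.46 higher in untreated NpBI-206AS cells, and the other 8 genes lay between -0.29 and 0.19. Non-induced miR-22 replicate 1 exceeded replicate 2 by 0.98 in TAGLN and by 0.58 in CCN1, so for these genes the spread between untreated cultures was of the size of the differences looked at.

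Related genes were read from lists of the pathway, described by counts and medians only, to be read against the 1.73% of all genes that rose and the 1.53% that fell. Of 22 genes of a published YAP signature, which holds CCN1, CCN2, ANKRD1 and AMOTL2, 2 rose and 2 fell in the first comparison, with a median of 0.06. Without those 4 genes, 1 of 18 rose and 2 fell, with a median of 0.04. TGFB2, a TGF-beta ligand, rose by 2.04 (SE 0.183, adjusted p = 0.0183), from 4.81 and 4.73 to 6.62 and 6.99, while NpBI-206AS cells read 4.15 and 4.44. NT5E, the surface enzyme that makes adenosine, fell by 2.52 (SE 0.19, adjusted p = 0.0145), from 9.35 and 9.09 to 6.53 and 6.85. The receptor kinase AXL fell by 0.93 (SE 0.151, adjusted p = 0.0401), from 8.14 and 8.08 to 7.24 and 7.11. Members of the same signature thus moved both ways.

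Of 26 genes of the Hippo pathway and its TEAD partners 1 fell and 0 rose, close to the 1.53% and 1.73% of all genes, with a median of -0.01. TEAD4, the TEAD factor prominent in muscle progenitors, fell by 0.98 (SE 0.174, adjusted p = 0.0486), from 8.60 and 8.28 to 7.49 and 7.44; it missed the threshold with arrays centred on their medians (0.0532) or quantile-normalized again (0.0548). YAP1 itself read 9.16 and 9.15 on the induced and 9.01 and 8.95 on the non-induced arrays (adjusted p = 0.555), and WWTR1 9.17 and 9.40 against 9.51 and 9.88 (adjusted p = 0.299). Arrays measure mRNA, so the amount of either protein in the nucleus was not measured.

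Of SRF and its cofactors, 9 of 10 had a row of their own (not MRTFA). None of these 9 passed in limma in the first comparison. SRF itself read 7.84 and 7.55 on the induced and 8.93 and 8.28 on the non-induced arrays, a difference of -0.91 (SE 0.257, adjusted p = 0.116). SCAI, a repressor of MRTF, read 6.98 and 7.23 against 7.76 and 7.88, a difference of -0.71 (SE 0.165, adjusted p = 0.0798). Both had an adjusted p under 0.05 without the dimmest 50 percent of rows (0.0469 and 0.0375) and with averaged rows (0.0457 and 0.0343). Against the 4 controls SCAI passed in limma (adjusted p = 0.0102) and SRF did not (0.0674). NpBI-206AS cells without and with doxycycline read 8.22 and 8.29 for SRF, and 7.87 and 8.09 for SCAI. The difference of SRF was -0.59 without non-induced replicate 1 and -1.24 without non-induced replicate 2. At an unadjusted p under 0.05 3 of the 9 were lower (SRF, SCAI and ELK3) and 0 higher, against 9.12% and 12.1% of all genes.

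Of 22 measured cytoskeletal SRF targets beyond the 10 genes, 0 rose and 2 fell, against 1.73% and 1.53% of all genes. Their median was 0.13, and 14 of 22 differences were above 0, against 51.1% of all genes. TPM2, the beta-tropomyosin, fell by 1.01 (SE 0.145, adjusted p = 0.0322) and MYH9, the heavy chain of non-muscle myosin, by 0.92 (SE 0.157, adjusted p = 0.0444). FILIP1L, named for its likeness to a filamin-binding protein, read 5.93 and 6.20 on the induced and 4.99 and 5.24 on the non-induced arrays, with 5.51 and 5.35 in NpBI-206AS cells. Its difference of 0.95 (SE 0.182) just missed the threshold (adjusted p = 0.0563), passed with arrays centred on their medians or quantile-normalized again, and passed against the 4 controls (0.79, adjusted p = 0.0216). TAGLN2 (0.68, adjusted p = 0.0835) and CSRP1 (0.64, adjusted p = 0.138) were the next largest positive differences and did not pass. Without and with doxycycline, NpBI-206AS cells read 7.14 and 7.96 for TAGLN2, a rise of 0.82, and 10.88 and 11.04 for CSRP1. The induced miR-22 arrays read 11.13 and 11.02 for CSRP1, close to the treated NpBI-206AS array. Among 14 markers of the smooth muscle contractile apparatus, 0 rose and 3 fell, with a median of -0.12. SYNM, the intermediate filament protein synemin, fell by 1.65 (SE 0.154, adjusted p = 0.019) and DES, desmin, by 1.07 (SE 0.17, adjusted p = 0.0384), and TPM2 is listed here as well. These 3 are also genes of skeletal muscle. SMTN, smoothelin, of the same list had a difference of -0.72 (SE 0.163, adjusted p = 0.0754) that did not pass. It passed against the 4 controls (-0.67, adjusted p = 0.0111), where 4 of the 14 were lower and 0 higher, against 6.31% and 7.78% of all genes. Of the 6 actin genes ACTC1, cardiac actin, fell by 1.00 (SE 0.146, adjusted p = 0.0328), from 12.13 and 12.20 to 11.17 and 11.16, but NpBI-206AS cells read 11.30 and 11.19, close to the induced level.

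Within the small families, CCN2 was the sole call among the 6 CCN genes, and CCN3, CCN4, CCN5 and CCN6 had differences between -0.20 and 0.11. Among the 6 calponin and transgelin genes CNN1 was the sole call, and all 6 differences were above 0, with a median of 0.54. In the ankyrin repeat and motin families 0 of 6 passed; the largest differences were those of AMOTL2 and, at -0.58 (SE 0.183, adjusted p = 0.146), ANKRD23.

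**Figure D3:**
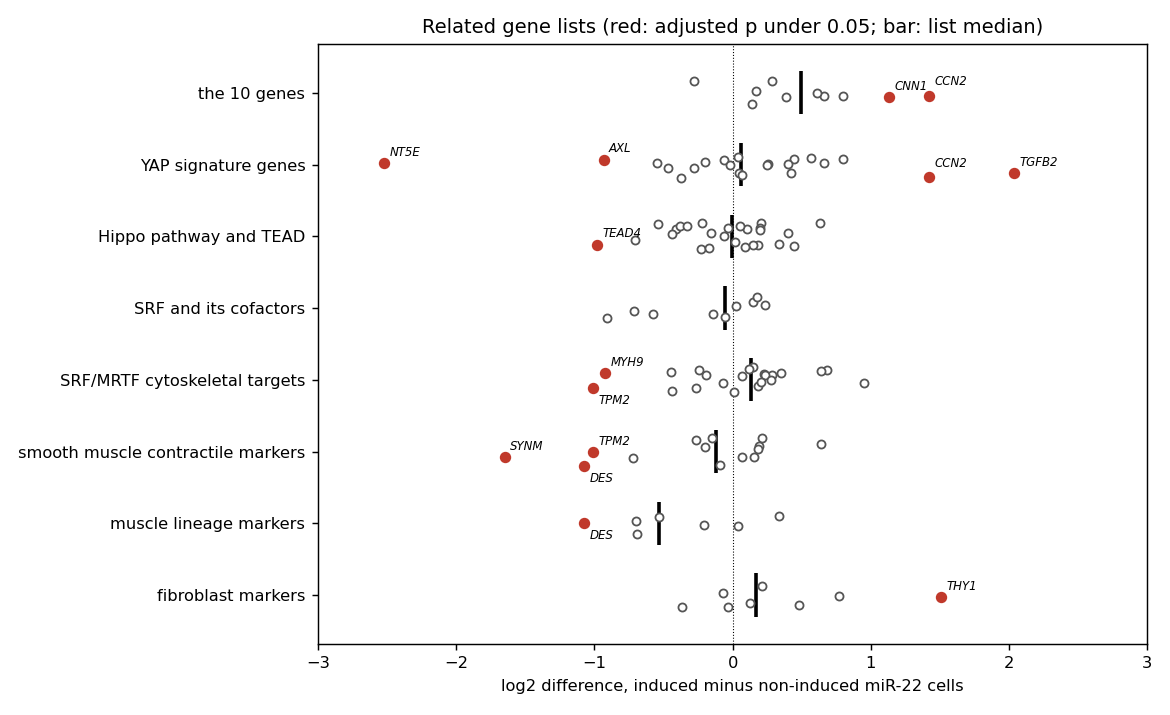
Log2 differences of miR-22 cells with minus without induction for each measured gene (points) of the 10 genes and of 7 related lists; red points passed an adjusted p of 0.05 and black bars are list medians. The 10 genes have a median of 0.50, whereas the YAP signature (0.06) and the smooth muscle markers (-0.12) hold calls on both or on the lower side only.

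Markers of other cell types were read beside these results, since CCN2, CNN1, TAGLN and ACTA2 are also high in fibroblasts. Of 8 fibroblast markers 1 rose, THY1 by 1.51 (SE 0.186, adjusted p = 0.0253), and 0 fell, against 1.73% and 1.53% of all genes. None of the 8 lay under the lower quartile on all arrays. Their summed log2 level was 58.8 to 58.9 on the induced and 55.9 to 56.5 on the non-induced miR-22 arrays, and 54.3 in untreated and 55.8 in treated NpBI-206AS cells. A sum can rest on a few genes. The median difference of the 8 was only 0.17, with 5 above 0, and the median NpBI-206AS difference with minus without doxycycline was also 0.17. Of 7 skeletal muscle markers 1 fell (DES) and 0 rose, against 1.53% and 1.73% of all genes. Their sum was 56.0 to 57.1 on the induced and 58.9 to 59.8 on the non-induced arrays, and 57.0 and 57.7 in NpBI-206AS cells. Their median difference was -0.53, with 2 of the 7 above 0, and the median NpBI-206AS difference was 0.15. The part of either list in the rise of CCN2 and CNN1 was not tested, and fewer cells of a kind cannot be told apart from less RNA per cell. Of the 5 endothelial, 4 blood and 4 epithelial markers measured, 0 passed in limma, beside the same shares of all genes. The largest differences were -0.53 for PECAM1, 0.51 for HBB and 0.40 for KRT18 (limma, adjusted p = 0.12, 0.12 and 0.296). At an unadjusted p under 0.05 there were 2 of the 13, PECAM1 lower and HBB higher, against 9.12% and 12.1% of all genes. KDR, PTPRC and EPCAM lay under the lower quartile on every array, whereas TEK, KRT8 and KRT18 lay above the median on every array.

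The genes whose pattern over the 6 arrays was most like that of CCN2, among 2302 genes that ranged over at least 1 log2 unit, were PDE5A, a cyclic GMP phosphodiesterase of smooth muscle (Pearson r = 0.9995), MAP2K5, the kinase upstream of ERK5 (0.9984), and GAS2, an actin-associated protein (0.9976). MAP2K5 read 9.39 and 9.44 on the induced arrays and between 8.06 and 8.22 on the other 4. PDE5A read between 2.97 and 3.23 on those 4, under the lower quartile, so its low level is not shown to be above background. For TAGLN the nearest were DCHS1 (r = 0.8665), MIR154 (0.8661) and RPL34-DT (0.8254). These correlations describe 6 arrays, of which the 2 induced ones also share their code prefix. PDE5A, MAP2K5 and GAS2 ranged over 1 log2 unit only through those 2 arrays. Any gene high on both and level on the other 4 has an r near 1 with CCN2, so these values show no link to it. TAGLN has no such step, so its r values cannot be set against those of CCN2.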

How the data were processed

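Total RNA from 6 cultures was labelled with the GeneChip WT Plus kit and hybridised to Affymetrix HuGene 1.0 ST arrays. The deposited values are log2 expression. The submitters' processing notes name Partek and RMA for what the authors did, without versions, and no source used here gives parameters or a genome build. RMA and its quantile step make arrays alike in overall level, so a shift shared by most genes would not be seen. Of 33297 rows, 19460 carried a single symbol, 1754 several and 12083 none; each of 18417 genes was read from its row with the highest mean, and symbols were updated through the RefSeq gene table for 19429 rows.

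Groups came from the sample titles. The values were fitted as deposited with limma 3.58.1 in R 4.3.3: 1 mean per group over all 6 arrays for the first comparison and for the contrast of the 2 lines' responses, and 1 mean for all 4 controls in the second comparison. P-values were adjusted over all 33297 rows (Benjamini-Hochberg) and called under 0.05; all are two-sided. The first fit had 2 residual and 3.62 prior degrees of freedom. Single-array differences were not tested and were counted from 2-fold. The fits were tested on simulated data.

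The 10 genes and the lists were chosen with earlier results of these data known. The result of 1 list is not reported here. All 10 are named, and from each list up to 4 genes that passed with non-overlapping groups, otherwise up to 2 with the largest difference. YAP1, WWTR1, ELK3, FILIP1L, SMTN, TAGLN2, CSRP1 and CCN3 to CCN6 were named after their values were seen. So were the genes given only by their place among all rows. Alternatives were other normalization (centring, quantile, cyclic loess), a filter on dim rows, averaged rows of a gene, fewer arrays and a replicate block. Promoter and miRNA sequences are RefSeq's.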

Additional observations from a re-analysis of the deposited data

How the results depend on the processing

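For induced against non-induced miR-22 cells, the count of rows that passed rose from 1200 to 2609 without the dimmest 50 percent of rows and to 2955 with the replicate number as a replicate block, and was 0 to 0 with single arrays left out. The count among the 10 genes rose from 2 to 4 without the dimmest rows and to 4 with averaged rows (AMOTL2 and CNN3 joined CCN2 and CNN1), was 2 with the replicate block, and 0 to 0 with single arrays left out. The labels only number the replicates, and same-numbered arrays deviated together with a correlation of 0.20 in 2 pairs, so the block is given here alone; with it SRF (adjusted p = 0.0341) and SCAI (0.0484) passed. Centring, quantile normalization and cyclic loess left the same 2 genes. The median difference of the 10 stayed between 0.44 and 0.61. Against all 4 controls, single left-out arrays moved the rows that passed, 4576 in all, between 897 and 7463, and the 10 genes' count between 1 and 5. CCN2 passed in each alternative of that comparison. TAGLN's difference there was below 0 without induced replicate 1 (-0.01), non-induced replicate 2 (-0.12) or the non-induced NpBI-206AS array (-0.03). The difference between responses gave 0 calls in each alternative run. The causes were not tested, except that the dim filter and averaged rows adjust over fewer rows, and each left-out array takes away residual degrees of freedom. Without detection calls, signal over background is not known, which limits the reading of ACTA2 and other dim rows.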
